A study of Mus musculus with 8 samples.

Results

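The genes described here encode the endoplasmic reticulum (ER) chaperones that testis germ cells use for sperm membrane proteins. They are the 3 testis chaperones Clgn (calmegin), Calr3 (calsperin) and Pdilt, their 5 somatic relatives Canx, Calr, Pdia3, Pdia4 and Hspa5, and the 2 sperm surface proteins Ace and Tex101. Members were taken by gene symbol, as every probe set that the platform annotation assigns to 1 of these genes alone, and this gave 24 probe sets of 10 genes, of 45037 probe sets and 18193 genes in all. RNA was measured on Affymetrix mouse genome expression arrays in round spermatids of Hr6b knockout mice (Hr6b-/-, here KO), round spermatids of wild type mice (Hr6b+/+, WT), late spermatocytes of KO mice and late spermatocytes of WT mice, with 2 arrays per group. All mice were males on the FVB background aged 4 to 5 weeks, and the 2 genotypes came from parallel crosses. Spermatocytes are the cells in meiotic prophase, and round spermatids are the haploid cells that follow them. Cells were enriched by sedimentation at unit gravity and Percoll gradients, so each sample is a fraction and not a pure cell type. The Hr6b deletion is carried in every cell of the animal, and nothing states how many mice stand behind an array, so the p-values reflect the spread of these samples alone, which may be technical.

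Proteins that enter the ER are folded there before they reach the cell surface. Calnexin and calreticulin hold glycoproteins by their sugars, protein disulfide isomerases make and rearrange disulfide bonds, and the HSP70 chaperone BiP (Hspa5) binds unfolded stretches. Male germ cells carry additional relatives of these proteins, and in mice lacking Clgn, Calr3 or Pdilt the sperm surface protein ADAM3 fails to mature and sperm do not pass into the oviduct.

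Signal below is the RMA value on the linear scale, a log2 fold change is the difference of log2 means (KO minus WT, or spermatids minus spermatocytes), and a gene is called higher or lower at an adjusted p under 0.05 from limma, fitted to all 8 arrays and adjusted over all 45037 probe sets. A gene with several probe sets is represented by the one with the highest mean log2 value over the arrays, and the others are given where their calls disagree. Levels of different probe sets are not compared. In bulk fractions, fewer cells of a type and less RNA per cell cannot be told apart.

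A signal of 100 was reached by 33.2% to 35.4% of probe sets per array, and replicate arrays correlated at r = 0.995 to 0.997 over probe sets, which are not independent. The targeted gene, Ube2b (which codes for HR6B), averaged 1006 in KO and 4606 in WT spermatids on its brightest probe set (log2 fold change -2.20, adjusted p = 4.51e-05 from limma), and 828 in KO and 3102 in WT spermatocytes (-1.90, adjusted p = 0.000659). The labels for cell type were borne out by most markers. The 8 round spermatid markers summed to between 140440 and 144020 in KO spermatids and between 117700 and 118280 in WT spermatids, against 20884 to 29403 in KO spermatocytes and 4751 to 7576 in WT spermatocytes. KO spermatocyte fractions thus held more spermatid marker RNA than WT ones, and 5 of the 8 markers passed the test. The sums were mostly Prm1, Prm2, Tnp1 and Tnp2, of which Tnp1 averaged 6419 in KO and 1433 in WT spermatocytes. Acrv1 (224 in KO and 129 in WT spermatocytes), Spaca1 (362 and 254) and Izumo1 (149 and 121) differed less. Of the 8 spermatocyte markers, 5 were lower in WT spermatids than in WT spermatocytes and Ccna1 was higher. The 8 Sertoli cell markers, mostly Clu and Amhr2, summed to between 901 and 917 in KO spermatids and between 609 and 659 in WT spermatids, against 3589 to 4565 in KO and 3676 to 4412 in WT spermatocytes. Of the Sertoli list, Sox9, Wt1, Gata4, Fshr and Dhh had means under 100 in all 4 groups. Clu averaged 331 in KO and 242 in WT spermatids, 2648 in KO and 2385 in WT spermatocytes. Amhr2 averaged 278 in KO and 153 in WT spermatids, a difference that passed the test (log2 fold change 0.85, adjusted p = 0.00544), and 1048 in KO and 1194 in WT spermatocytes, while Rhox5 averaged 163 in KO and 206 in WT spermatocytes. Of the 6 spermatogonial markers, 5 or 6 had means under 100 in each group. Among them Sohlh1 was called higher in KO than in WT spermatids (53.0 and 25.2, adjusted p = 0.00104 from limma). So were 1 of 4 macrophage markers, Adgre1 (216 and 142, adjusted p = 0.00562), and 1 of 4 endothelial markers, Cdh5 (37.6 and 27.1, adjusted p = 0.0352). The other 3 of each, and the measured Leydig and peritubular cell markers, were not called in that comparison.

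Promoter sequence was at hand for 9 of the 10 genes (11 windows of 300 bases, 250 before and 50 after a start site, from RefSeq on build GRCm38.p6), none for Clgn. The windows were searched on both strands for the ER stress response element, written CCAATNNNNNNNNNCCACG, for the cyclic AMP response element TGACGTCA and for its core TGACG, which lies inside the longer element. The variant TGAGGTCA was added after these. The ER stress response element was found in Canx, Calr and Hspa5 and in no other member window. It occurs in 39 of all 32851 windows of that length, or 0.119%. The matches, in capitals with 15 bases on each side, are shown because they set these 3 somatic genes apart by sequence:
Hspa5, chr2:34772010-34772058, plus strand, from -65 to -47 of the start base, which is counted as 0: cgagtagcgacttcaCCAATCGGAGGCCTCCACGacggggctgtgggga
Canx, chr11:50325785-50325833, minus strand, from -145 to -127: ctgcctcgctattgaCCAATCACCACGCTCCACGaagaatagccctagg
Calr, chr8:84847060-84847108, minus strand, from -162 to -144, with the element on the opposite strand: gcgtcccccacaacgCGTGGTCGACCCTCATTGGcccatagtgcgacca
The full cyclic AMP element was in no member window (1.79% of all windows hold it), and its core was in those of Calr3, Canx, Pdia3 and Hspa5 (20.8% of all windows). TGAGGTCA, present in 2.17% of all windows, was found upstream of Calr3 and of the second of 2 start sites of Ace. Both genes had more signal in spermatids than in spermatocytes, as did Pdilt, whose window holds no match, and the matches are shown for that reason:
Ace, second start site, chr11:105975122-105975159, plus strand, from -52 to -45: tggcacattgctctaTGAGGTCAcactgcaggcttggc
Calr3, first start site, chr8:72443976-72444013, minus strand, from -220 to -213: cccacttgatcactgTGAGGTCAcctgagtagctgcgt
By base composition the members' windows fell on both sides of the median of all windows, 7 CG dinucleotides. Below the median were Pdilt with 3, the second start site of Calr3 with 3 and that of Ace with 2. Above it were Pdia3 with 38, Canx 35, Hspa5 25, Pdia4 24 and Calr 17. Tex101 with 19, the first start site of Ace with 29 and that of Calr3 with 16 were above it as well.

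Calr3 and Pdilt were far higher in spermatids than in spermatocytes in both genotypes, while the 2 probe sets of Clgn with the highest means differed little between the cell types. Calr3, a testis relative of calreticulin, had signals of 2439 and 2788 in KO spermatids, 1755 and 1663 in WT spermatids, 73.1 and 69.8 in KO spermatocytes and 56.1 and 47.0 in WT spermatocytes. All 4 groups were apart, in that order. The stage difference was 36.5-fold in KO cells (log2 fold change 5.19, SE 0.13, adjusted p = 3.51e-09 from limma) and 33.3-fold in WT cells (5.06, SE 0.13, adjusted p = 1.54e-09). The second probe set, 1453232_at, showed 43.1-fold in KO and 69.1-fold in WT cells, and the third, 1431255_at, stayed between 36.3 and 47.7 on every array. The deposited values carry no detection call, so the size of a fold against a signal under 100, and any difference in such folds between genotypes, is uncertain for Calr3 and for the other genes with low signals in spermatocytes.

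In KO spermatids Calr3 was 1.53-fold higher than in WT spermatids (log2 fold change 0.61, SE 0.13, adjusted p = 0.0122 from limma), and it was the only member gene called higher there. This call was lost without KO spermatids replicate 2 (0.51, adjusted p = 0.0734), without WT spermatids replicate 1 (0.65, adjusted p = 0.0522) or replicate 2 (0.57, adjusted p = 0.0737), and with the mean over its probe sets (0.38, adjusted p = 0.110). On 1453232_at the difference was 0.57 and did not pass (adjusted p = 0.211). In spermatocytes, both arrays of the KO were above both of the WT on these 2 probe sets, with log2 fold changes of 0.48 (adjusted p = 0.136) on the representative probe set and 1.25 (adjusted p = 0.0601) on 1453232_at. On 1453232_at the difference was called without KO spermatocytes replicate 2 (1.71, adjusted p = 0.0149) and without WT spermatocytes replicate 1 (1.57, adjusted p = 0.0262). The signals were under 100 in all these spermatocyte arrays, and the spermatid markers above were also higher in the KO fractions. Their part in the Calr3 values was not tested.

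Pdilt, a protein disulfide isomerase relative of the testis that lacks the usual catalytic motif, had signals of 2700.2 and 2777 in KO spermatids, 2891 and 3086 in WT spermatids, 58.8 and 46.9 in KO spermatocytes and 61.0 and 39.0 in WT spermatocytes. The spermatocyte groups overlapped, and the spermatid arrays of the WT lay just above those of the KO. The stage difference was 52.1-fold in KO cells (log2 fold change 5.70, SE 0.20, adjusted p = 5.49e-09 from limma) and 61.3-fold in WT cells (5.94, SE 0.20, adjusted p = 3.40e-09). Between genotypes the log2 fold change was -0.13 in spermatids, with a 95% interval of -0.56 to 0.31 (adjusted p = 0.734), and 0.11 in spermatocytes, with an interval of -0.33 to 0.54 (adjusted p = 0.921). The other probe set had -0.18 and 0.46, neither called.

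Clgn, an ER membrane chaperone related to calnexin, needed in mouse for pairing of the fertilin subunits ADAM1A and ADAM2, had signals of 6197 and 6385 in KO spermatids, 7529 and 7489 in WT spermatids, 6846 and 6769 in KO spermatocytes and 6367 and 6133 in WT spermatocytes. KO arrays were below WT arrays in spermatids and above them in spermatocytes. Neither difference passed the test (log2 fold change -0.26, SE 0.11, adjusted p = 0.146 in spermatids; 0.12, SE 0.11, adjusted p = 0.776 in spermatocytes), and neither did the difference between these 2 effects (-0.38, adjusted p = 0.172 from limma). Probe set 1430240_a_at had nearly the same values, -0.25 in spermatids and 0.17 in spermatocytes. Across stages 1430240_a_at had -0.06 in KO cells (adjusted p = 0.667 from limma) and was called higher in WT spermatids than in WT spermatocytes (0.36, adjusted p = 0.0147).

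The third Clgn probe set, 1457829_at, behaved differently. Its signals were 1329 and 1403 in KO spermatids, 2797 and 2453 in WT spermatids, 9225 and 9300.3 in KO spermatocytes and 9866 and 11108 in WT spermatocytes. Here spermatids were far below spermatocytes, by 6.79-fold in KO cells (log2 fold change -2.76, SE 0.12, adjusted p = 1.91e-08 from limma) and by 4.00-fold in WT cells (-1.999, adjusted p = 1.89e-07). KO spermatids were 1.92-fold lower than WT spermatids (-0.94, SE 0.12, adjusted p = 0.00125). The KO effect was more negative in spermatids than in spermatocytes (difference -0.76, SE 0.17, adjusted p = 0.0379). The call in spermatids held under the other scalings (-0.72 to -0.76), while that of the difference between the cell types was lost under all 3 of them (-0.52 to -0.56, adjusted p = 0.083 to 0.141) and without any of 7 of the 8 arrays, all but WT spermatocytes replicate 2. Across stages the representative probe set differed little, with -0.11 in KO cells (adjusted p = 0.367) and 0.26 in WT cells (adjusted p = 0.0578). Its KO value turned to 0.29 after cyclic loess normalization (adjusted p = 0.0359) and to 0.42 with expressed medians set equal (adjusted p = 0.00536), and with the mean over probe sets its WT value turned to -0.46 (adjusted p = 0.00109). A direction for Clgn across stages therefore depends on the probe set and the scaling.

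**Figure D1:**
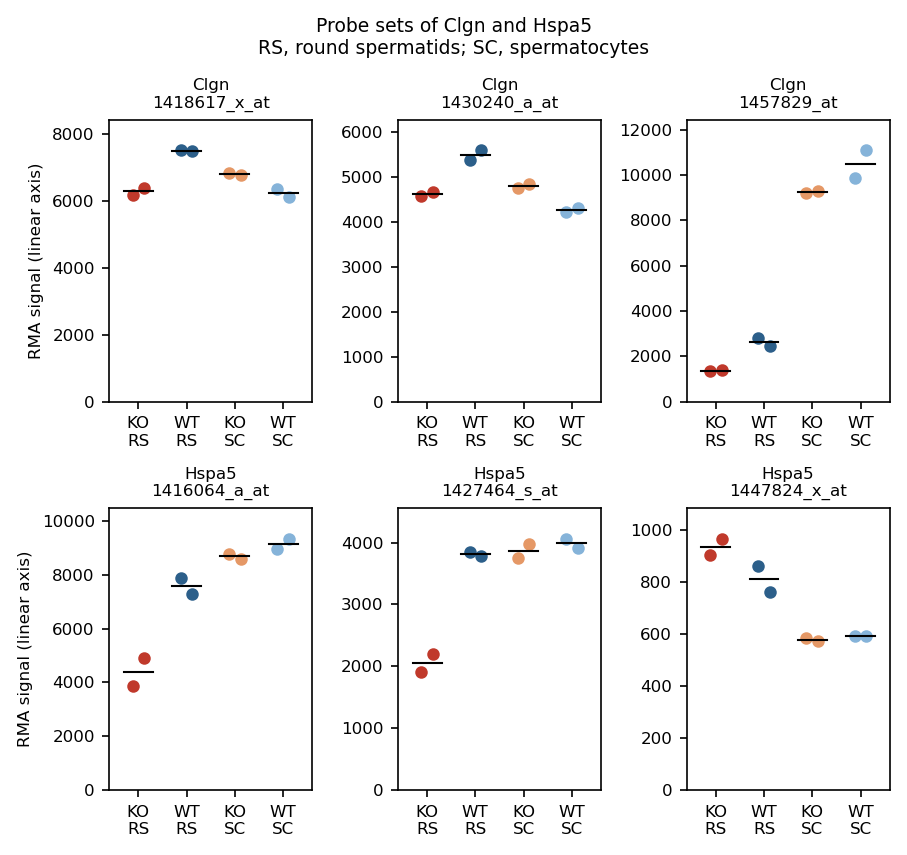
Signal of the 3 probe sets of Clgn (upper row) and the 3 of Hspa5 (lower row) on each of the 8 arrays (points) with the mean of 2 arrays (lines), linear axes from 0, in KO and WT round spermatids (RS) and KO and WT spermatocytes (SC). Clgn 1457829_at is several times lower in spermatids than in spermatocytes, unlike the other 2 Clgn probe sets, and Hspa5 1447824_x_at runs opposite to the other 2 Hspa5 probe sets.

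The 2 surface proteins moved in opposite directions between the cell types. Ace, the peptidase that converts angiotensin and whose testis form is made from a start site inside the gene, had signals of 3756 and 2264 in KO spermatids, 2240.3 and 2460.0 in WT spermatids, 154 and 159 in KO spermatocytes and 75.4 and 138 in WT spermatocytes. The 2 KO spermatid arrays differed widely and overlapped the WT arrays, while spermatids were far above spermatocytes. The stage difference was 18.6-fold in KO cells (log2 fold change 4.22, SE 0.28, adjusted p = 3.32e-07 from limma) and 23.0-fold in WT cells (4.53, SE 0.28, adjusted p = 2.17e-07). Probe set 1427034_at rose less, 4.25-fold in KO and 3.52-fold in WT cells. KO spermatids had a log2 fold change of 0.31 against WT spermatids (interval -0.31 to 0.93, adjusted p = 0.520), and KO spermatocytes had 0.62 against WT spermatocytes (adjusted p = 0.455). On 1427034_at these values were 0.05 in spermatids (adjusted p = 0.928 from limma) and -0.23 in spermatocytes (adjusted p = 0.839).

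Tex101, a GPI-anchored glycoprotein of germ cells that testis ACE cleaves from the sperm surface in mouse, had signals of 679 and 718 in KO spermatids, 616 and 680 in WT spermatids, 8885 and 9613 in KO spermatocytes and 8836 and 12090 in WT spermatocytes. Genotypes overlapped in both cell types. Spermatids were 13.2-fold lower than spermatocytes in KO cells (log2 fold change -3.73, SE 0.15, adjusted p = 1.32e-08 from limma) and 16.0-fold lower in WT cells (-4.00, SE 0.15, adjusted p = 7.80e-09). Between genotypes it had 0.11 in spermatids (adjusted p = 0.701) and -0.16 in spermatocytes (adjusted p = 0.807).

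**Figure D2:**
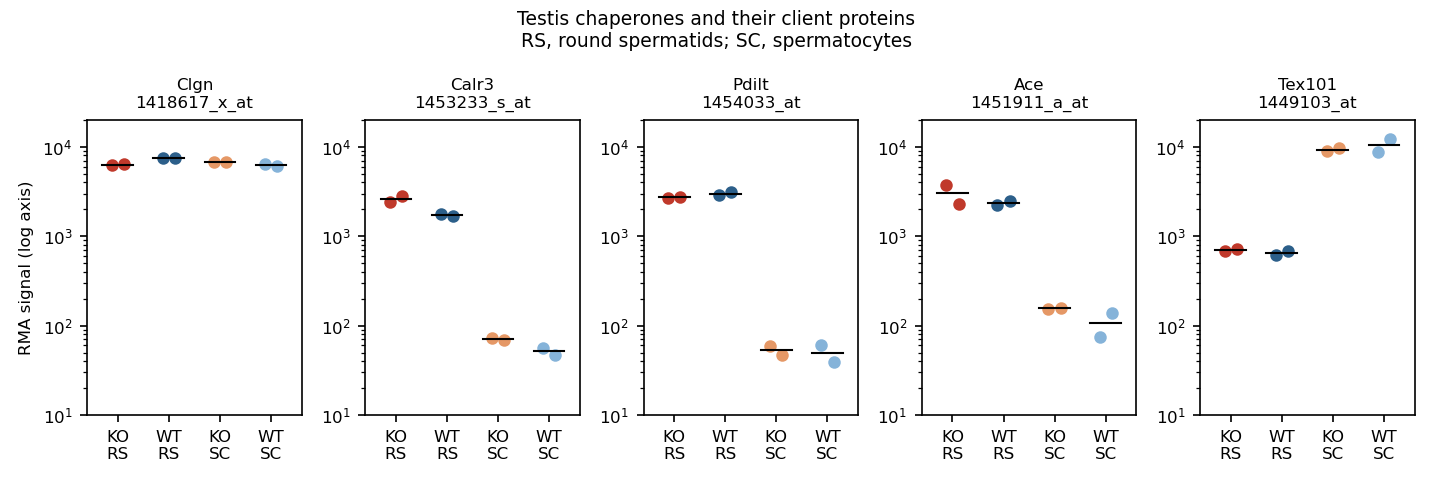
Signal (log axis) of the representative probe sets of Clgn, Calr3, Pdilt, Ace and Tex101 on each array (points) with the mean of 2 arrays (lines), in KO and WT round spermatids (RS) and KO and WT spermatocytes (SC). Calr3, Pdilt and Ace lie between 1663 and 3756 in spermatids and under 160 in spermatocytes, Tex101 lies between 616 and 718 in spermatids and between 8836 and 12090 in spermatocytes, and Clgn stays between 6133 and 7529.

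By representative probe set, all 5 somatic relatives were lower in spermatids than in spermatocytes in KO cells, and 3 of them, Canx, Calr and Pdia4, in WT cells, where Hspa5 and Pdia3 were not called. Canx (calnexin) had signals of 517 and 652 in KO spermatids, 886 and 735 in WT spermatids, 3606 and 4104 in KO spermatocytes and 4138 and 4074 in WT spermatocytes. The KO spermatid arrays were the lowest and lay below the WT spermatid arrays. Spermatids were 6.63-fold lower than spermatocytes in KO cells (log2 fold change -2.73, SE 0.15, adjusted p = 8.11e-08 from limma) and 5.09-fold lower in WT cells (-2.35, adjusted p = 2.72e-07). The other 2 Canx probe sets were also called lower, with -1.03 on 1422845_at and -2.76 on 1428935_at in KO cells. In WT cells they had -0.67 and -2.60. Between KO and WT spermatids the log2 fold change of Canx was -0.47 and did not pass (SE 0.15, adjusted p = 0.0610), while 1428935_at, under 50 in spermatids, had -0.52 (adjusted p = 0.0457).

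Calr (calreticulin) had signals of 5141 and 4781 in KO spermatids, 6598 and 6123 in WT spermatids, 7571 and 7895 in KO spermatocytes and 9186 and 8996 in WT spermatocytes, and the 4 groups did not overlap. The stage difference was -0.64 on the log2 scale in KO cells (SE 0.11, adjusted p = 0.000551 from limma) and -0.52 in WT cells (adjusted p = 0.00259). After cyclic loess the KO value was -0.24 (adjusted p = 0.0946), and with expressed medians set equal the values were -0.11 in KO (adjusted p = 0.438) and -0.20 in WT cells (adjusted p = 0.165). In KO spermatids all 3 probe sets were below WT spermatids on every array. The representative one had -0.36 (SE 0.11, adjusted p = 0.0587) and the other 2 had -0.41 (adjusted p = 0.0396 and 0.0387), calls lost under each of the other scalings.

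Pdia3 (ERp57), the disulfide isomerase that works with calnexin and calreticulin, had signals of 1349.6 and 1862 in KO spermatids, 2885 and 3057 in WT spermatids, 2814 and 2525 in KO spermatocytes and 2383 and 2877 in WT spermatocytes. The KO spermatid arrays stood apart, below all others. The WT spermatid arrays lay just above the spermatocyte arrays of both genotypes, which overlapped. KO spermatids were 1.87-fold lower than WT spermatids (log2 fold change -0.91, SE 0.16, adjusted p = 0.00618 from limma), a call that just missed the threshold without KO spermatids replicate 1 (-0.67, adjusted p = 0.0503). In spermatocytes the value was 0.03 (interval -0.34 to 0.39, adjusted p = 0.982), and the difference between the cell types was -0.93 (SE 0.23, adjusted p = 0.0528). KO spermatids were also below KO spermatocytes (-0.75, adjusted p = 0.00264), but not called after cyclic loess (-0.20) or with expressed medians set equal (-0.22). WT spermatids had 0.18 against WT spermatocytes (adjusted p = 0.382). The other probe set, 1445330_at, with group means of 31.3 to 48.1, was called lower in spermatids in WT cells (-0.40, adjusted p = 0.0421 from limma) and KO cells (-0.52, adjusted p = 0.0114). Between KO and WT spermatids it had -0.24 (adjusted p = 0.335).

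Hspa5 (BiP) was likewise lowest in KO spermatids. Its signals were 3864 and 4909.5 in KO spermatids, 7885 and 7273 in WT spermatids, 8769.9 and 8604 in KO spermatocytes and 8975 and 9348 in WT spermatocytes, with no overlap between groups. KO spermatids were 1.74-fold lower than WT spermatids (log2 fold change -0.80, SE 0.13, adjusted p = 0.00419 from limma), against -0.08 in spermatocytes (adjusted p = 0.919). The difference of these effects was -0.72 (SE 0.19, adjusted p = 0.0597) on this probe set. It was -0.85 (SE 0.16, adjusted p = 0.0243) on 1427464_s_at, where signals were 1910.0 and 2195 in KO spermatids, 3839 and 3788 in WT spermatids, 3750.0 and 3983 in KO spermatocytes and 4064 and 3918 in WT spermatocytes. That call was lost after cyclic loess (-0.60, adjusted p = 0.0800), with expressed medians set equal (-0.63, adjusted p = 0.0559) and without 5 of the 8 arrays, namely both KO spermatocyte arrays, both WT spermatid arrays and KO spermatids replicate 1. The third probe set of Hspa5, 1447824_x_at, ran the other way, with 906 and 969 in KO spermatids, 863 and 762 in WT spermatids, 584 and 575 in KO spermatocytes and 595 and 592 in WT spermatocytes. Across stages the representative probe set had -0.996 in KO cells (SE 0.13, adjusted p = 8.69e-05) and -0.27 in WT cells (adjusted p = 0.111), and 1427464_s_at had -0.92 in KO cells (adjusted p = 5.62e-05) and -0.07 in WT cells (adjusted p = 0.662), whereas 1447824_x_at was higher in spermatids, by 0.69 in KO cells (adjusted p = 0.00039) and 0.45 in WT cells (adjusted p = 0.00702). The KO effect on 1447824_x_at in spermatids was 0.21 (adjusted p = 0.271), and it was called with expressed medians set equal (0.39, adjusted p = 0.0443) and after cyclic loess (0.46, adjusted p = 0.0267).

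Pdia4 (ERp72), another disulfide isomerase, had low signals, 121 and 140.2 in KO spermatids, 120 and 162 in WT spermatids, 213 and 190.1 in KO spermatocytes and 207 and 199.7 in WT spermatocytes. Genotypes overlapped in both cell types, with -0.10 in spermatids (adjusted p = 0.739 from limma) and -0.02 in spermatocytes (adjusted p = 0.988). The other probe set, 1450620_at, averaged 24.2 in KO spermatids and 16.7 in KO spermatocytes and was called higher in KO spermatids (0.52, adjusted p = 0.012 from limma). In WT cells it had 0.17 (adjusted p = 0.376). The representative probe set went the other way across stages. The stage difference, -0.63 in KO (adjusted p = 0.00558) and -0.54 in WT cells (adjusted p = 0.0137), was called under none of the 3 other scalings (-0.09 to -0.24 in KO and -0.20 to -0.30 in WT cells), and in WT cells not without WT spermatids replicate 1 (-0.32, adjusted p = 0.123) or WT spermatocytes replicate 1 (-0.52, adjusted p = 0.0528).

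**Figure D3:**
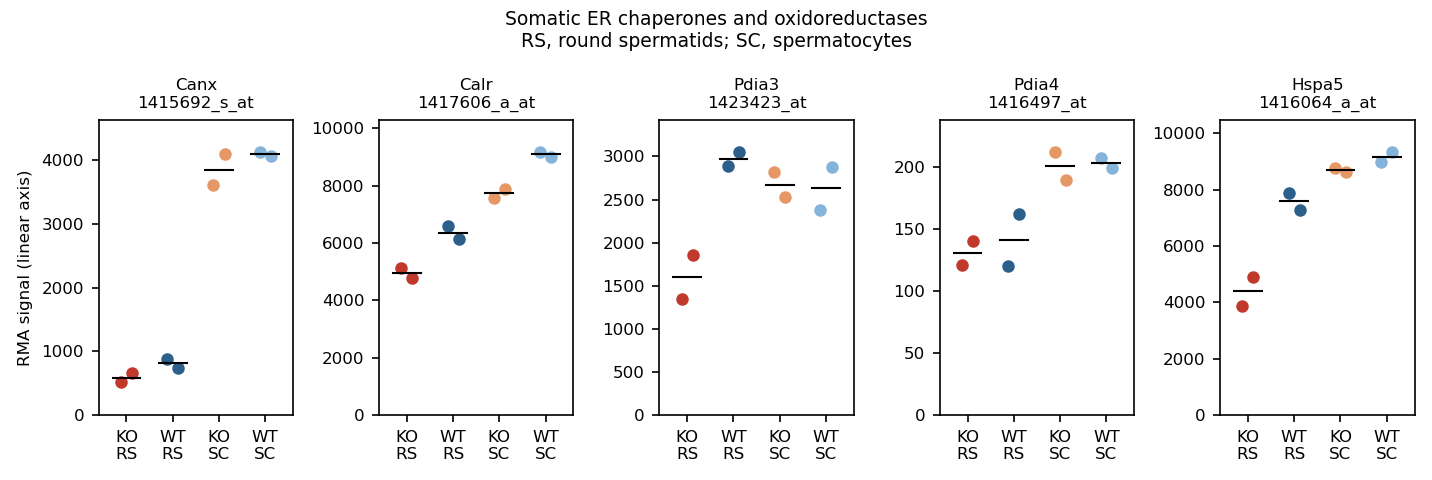
Signal (linear axes from 0) of the representative probe sets of Canx, Calr, Pdia3, Pdia4 and Hspa5 on each array (points) with the mean of 2 arrays (lines), in KO and WT round spermatids (RS) and KO and WT spermatocytes (SC). KO spermatids have the lowest mean in all 5 panels, and for Pdia3 and Hspa5 they are well below the other 3 groups.

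Counted over probe sets, 1 of the 24 was higher and 7 were lower in KO than in WT spermatids, against 4.83% higher and 9.63% lower of all probe sets tested. The 7 were Clgn 1457829_at, Canx 1428935_at, 2 of Calr, Pdia3 1423423_at and 2 of Hspa5, and the median log2 fold change was -0.24 over the 24 and 0.02 over all. Called decreases were more frequent among bright probe sets, those with a signal of 100 or more on at least 4 arrays. All 8 calls fell among the 21 bright members, of which 33.3% were lower and 4.76% higher, against 20.8% lower and 6.09% higher of all 17597 bright probe sets in the same fit. By representative probe set, 2 of the 5 somatic relatives were lower and none was higher, 1 of the 3 testis chaperones was higher, and neither surface protein was called. Bright probe sets had a median log2 value 0.18 lower in KO than in WT spermatids (shift -0.18). With these medians set equal, 2 members were higher and 4 lower, and of all probe sets 15.5% were higher and 5.28% lower. Clgn 1457829_at, Calr3 1453233_s_at, Pdia3 1423423_at and the same 2 Hspa5 probe sets kept their calls under all 3 other scalings. The total of 8 was 4 without KO spermatids replicate 1 or without either WT spermatid array, and 5 without KO spermatids replicate 2 or without either KO spermatocyte array.

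In spermatocytes none of the 24 was called by limma (1 without KO spermatocytes replicate 2 or without WT spermatocytes replicate 1, Calr3 1453232_at), against 1.18% higher and 0.413% lower of all probe sets, and 4 of the 24 had an unadjusted p under 0.05. The median of the members was -0.04. The KO effect differed between the cell types for 2 of the 24, both more negative in spermatids, against 1.46% more positive and 3.14% more negative of all probe sets and 6.78% more negative of bright ones. With expressed medians set equal neither was called, and of all probe sets 4.63% were more positive and 1.34% more negative.

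**Figure D4:**
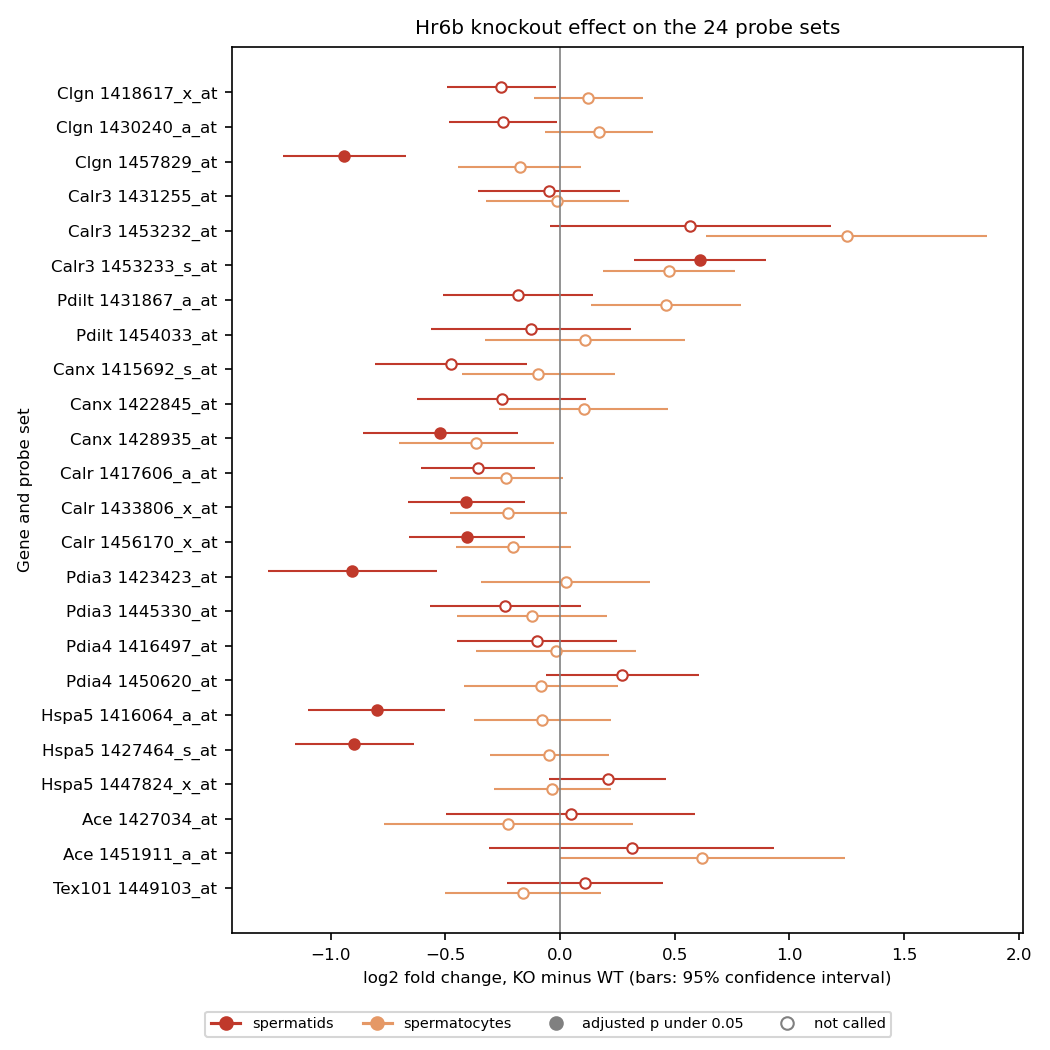
Log2 fold change, KO minus WT, of each of the 24 probe sets in spermatids (red) and spermatocytes (orange), with 95% confidence intervals from limma and filled points where the adjusted p is under 0.05. The 8 filled points are all in spermatids, 7 left of 0 and Calr3 1453233_s_at at 0.61.

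Across stages 8 member probe sets were higher and 13 lower in KO spermatids than in KO spermatocytes, against 34.2% and 28.7% of all. In WT cells 8 were higher and 10 lower, against 26% and 27.3% of all. Among bright probe sets the shares were closer. In KO cells 33.3% of the bright members were higher and 57.1% lower, against 30.5% and 55.1% of all bright probe sets. In WT cells 38.1% were higher and 42.9% lower, against 32.6% and 50%. The expressed median was lower in spermatids (shift -0.53 in KO and -0.32 in WT cells). With it set equal, 11 members were higher and 7 lower in KO cells, against 67.7% and 20.2% of all, and 12 were higher and 4 lower in WT cells, against 57.2% and 21.6% of all. On their representative probe sets, the stage differences of Calr3, Pdilt, Ace, Canx and Tex101 exceeded any of these shifts several times. Canx 1422845_at was nearer to the shifts, with -1.03 in KO and -0.67 in WT cells, and Calr3 1431255_at had 0.07 in KO and 0.11 in WT cells.

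The wider ER machinery was examined in 2 lists. Of 42 genes of ER folding and glycoprotein quality control, 11 were lower and none higher in KO than in WT spermatids, with a median log2 fold change of -0.28 against 0.02 over all. These 11 are 26.2% of the list, and 41 of the 42 genes are bright. Of all 9989 genes with a bright representative probe set, 21.1% were lower and 7.29% higher, with a median of -0.14, so the share of the list called lower is near that of bright genes. The 8 spermatocyte markers had a lower sum as well, 11026 to 12039 in KO and 14152 to 14856 in WT spermatids. Their median was -0.26, and 1 of 8, Mlh3, was called lower. They did not all move together, as Hormad1 (mean 754 in KO and 721 in WT spermatids) and Dmc1 (69.9 and 65.2) were slightly higher in KO. Ccna1 (2627 in KO and 4004 in WT spermatids), which contributed to the lower sum, was itself higher in spermatids than in spermatocytes. Most genes of the list had more signal in spermatocytes than in spermatids, and the part of spermatocyte RNA in their values was not tested. The largest decreases were those of Uggt2, of the family of enzymes that return unfolded glycoproteins to calnexin (mean 323 ± 12.8 in KO and 592 ± 17.1 in WT spermatids, SD, n = 2 each; log2 fold change -0.87, adjusted p = 0.00191 from limma), Tmx1, a membrane-bound thioredoxin-like protein (-0.81, adjusted p = 0.00226), and Pdia6, a further disulfide isomerase (-0.69, adjusted p = 0.00504). For Uggt2 the KO effect was more negative in spermatids than in spermatocytes (difference -1.07, SE 0.17, adjusted p = 0.0140), a call lost without either KO spermatocyte array, either WT spermatid array or KO spermatids replicate 1 (adjusted p = 0.0503 to 0.0699). In KO spermatocytes no gene of this list was called by limma and 4 had an unadjusted p under 0.05. The spermatid count was 4 after cyclic loess or quantile normalization, 6 with expressed medians set equal, 17 when only bright probe sets were tested (41.5% of the 41 bright genes, against 26.1% lower of all bright probe sets in that setting), and between 3 and 11 with 1 array left out (3 without KO spermatids replicate 1 or WT spermatids replicate 1, 4 without WT spermatids replicate 2 and 5 without KO spermatids replicate 2). Uggt2, Tmx1 and Pdia6 were called in spermatids under every one of these alternatives.

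Of 21 measured genes of the unfolded protein response and ER-associated degradation, 6 were lower and none higher in KO spermatids, with a median of -0.16. These are 28.6% of the list, and 18 of the 21 are bright, of which 33.3% were lower, against the 21.1% of bright genes above. The lower sum of spermatocyte markers, with the exceptions given above, stands beside this list too. Edem3, which trims mannose from misfolded glycoproteins, had 152 ± 32.8 in KO and 268 ± 32.2 in WT spermatids (SD, n = 2 each; log2 fold change -0.83, adjusted p = 0.00780 from limma). Sel1l, a subunit of the ubiquitin ligase complex that removes such proteins, had -0.70 (adjusted p = 0.0184), and Atf6, a transcription factor of the ER stress response, had -0.69 (adjusted p = 0.00497). The difference between the cell types was called for Edem3 (-0.98, SE 0.22, adjusted p = 0.0410), but under none of the 3 other scalings (-0.76 to -0.84) and, of the fits with 1 array left out, only without KO spermatids replicate 2. No gene was called in spermatocytes by limma, where 1 had an unadjusted p under 0.05. The count of 6 was 2 after cyclic loess, 3 with expressed medians set equal, 1 without WT spermatids replicate 1 and 3 without WT spermatids replicate 2 or KO spermatids replicate 1. Without KO spermatids replicate 1 or WT spermatids replicate 1, Edem3 had adjusted p = 0.0604 and 0.0645 and Sel1l 0.136 and 0.0956, and Sel1l also lost its call without WT spermatids replicate 2 (0.0730) and after cyclic loess (0.0906).

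Across stages most genes of both lists were lower in spermatids, as were many genes in general. In the folding list 29 of 42 were lower (69%) and 4 higher in KO cells, and 28 were lower (66.7%) and 8 higher in WT cells. Of the 9989 bright genes, 50.4% were lower and 35.3% higher in KO cells, and 45.7% were lower and 37.4% higher in WT cells. The list medians were -1.05 in KO and -0.60 in WT cells, against -0.35 in KO and -0.17 in WT cells over bright genes. Sec62, of the channel that takes proteins into the ER (mean 297 in KO spermatids, 269 in WT spermatids, 2238 in KO spermatocytes and 2101 in WT spermatocytes) and Sdf2l1, a partner of BiP (255, 332, 2021 and 2581 in the same order), fell most together with Tmx3. Tmx3 averaged 21.2 in KO and 23.1 in WT spermatids, against 177 in spermatocytes of either genotype, and its spermatid signals are too low for a firm fold. Ero1a, which oxidizes disulfide isomerases, was higher by 1.01 on the log2 scale in KO and 1.33 in WT cells, and Creld2 by 0.76 in KO and 1.00 in WT cells. Manf, a secreted ER stress protein, had 0.51 in KO cells, and Dad1, a subunit of the enzyme that attaches sugars to new proteins, had 0.71 in WT cells. In the degradation list 13 of 21 genes were lower and 5 higher in KO cells, and 12 were lower and 6 higher in WT cells, with medians of -1.18 in KO and -0.92 in WT cells. Syvn1, the ligase that works with SEL1L, had -3.29 in KO and -3.11 in WT cells, and 3 stress response factors, Atf4, Atf6b and Xbp1, were lower as well (-3.01 for Atf4 and -2.42 for Atf6b in KO cells, -2.74 for Atf4 and -2.41 for Xbp1 in WT cells). Atf6, another of these factors, was higher in spermatids, by 0.36 in KO (adjusted p = 0.0229) and 1.03 in WT cells (adjusted p = 3.12e-05). Edem1, of the same family as Edem3, had 2.27 in KO and 2.44 in WT cells, and Derl3 and Derl1, which help move proteins out of the ER, had 1.28 and 1.15 in KO and 1.30 and 1.20 in WT cells.

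The third list held 16 measured genes of ADAM3 maturation and sperm migration. In KO against WT spermatids 3 were lower (18.8%) and 1 was higher (6.25%), shares near those of bright genes (21.1% lower and 7.29% higher), and the median was -0.06. Adam1b had 2014 ± 86.6 in KO and 3817 ± 9.45 in WT spermatids (SD, n = 2 each; log2 fold change -0.92, adjusted p = 0.00266 from limma). Rnase10, of the ribonuclease A family, had -0.79 (adjusted p = 0.0235), and Adam2, the fertilin beta subunit, had -0.41 (adjusted p = 0.0290). Prss37, a serine protease homolog, was higher, with 4922 ± 236 in KO and 2899 ± 97.2 in WT spermatids (0.76, adjusted p = 0.0152). Of these 4, Adam1b was called without any 1 array, Prss37 not without any 1 of the 4 spermatid arrays (adjusted p = 0.0661 to 0.0828), Rnase10 not without either KO spermatid array or WT spermatids replicate 1 (0.0851 to 0.152), and Adam2 not without any 1 array of the spermatids or of the KO spermatocytes (0.0546 to 0.142). After cyclic loess Adam2 had -0.22 (adjusted p = 0.225) and Rnase10 -0.68 (adjusted p = 0.0563), and neither was called with expressed medians set equal. In spermatocytes, where 3.85% of bright genes were higher, Prss37 (0.94, adjusted p = 0.0243) and Adam6a (1.16, adjusted p = 0.00712) were higher in the KO, at means of 170.2 and 85.9 in KO and 90.1 and 39.1 in WT spermatocytes. Both genes had far more signal in spermatids, and the spermatid markers rose in the same KO fractions, whose part in these values was not tested. With the 4 spermatocyte arrays fitted alone neither was called, nor was either without KO spermatocytes replicate 1 (1.14 for Adam6a, adjusted p = 0.0907, and 0.86 for Prss37, adjusted p = 0.253). Prss37 also lost its call without KO spermatocytes replicate 2, WT spermatocytes replicate 2 or either KO spermatid array (adjusted p = 0.0530 to 0.0942). Adam3 itself had means of 12116 in KO spermatids, 12945 in WT spermatids, 6234 in KO spermatocytes and 5249.7 in WT spermatocytes. Across stages 9 of the 16 were higher and 3 lower in KO cells, and 12 were higher and 3 lower in WT cells, against the shares of bright genes given for the folding list. Those most increased were Adam6a, with 3301 in KO and 2691 in WT spermatids, against 85.9 in KO and 39.1 in WT spermatocytes, Prss37, and Adam6b, with 1009.7 in KO and 761 in WT spermatids, against 63.3 in KO and 45.6 in WT spermatocytes. These spermatocyte signals are too low for a firm fold. Those lower were Tpst2, Ly6k and Adam2, with -2.39, -1.30 and -0.80 in KO cells and -2.32, -1.57 and -0.39 in WT cells.

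**Figure D5:**
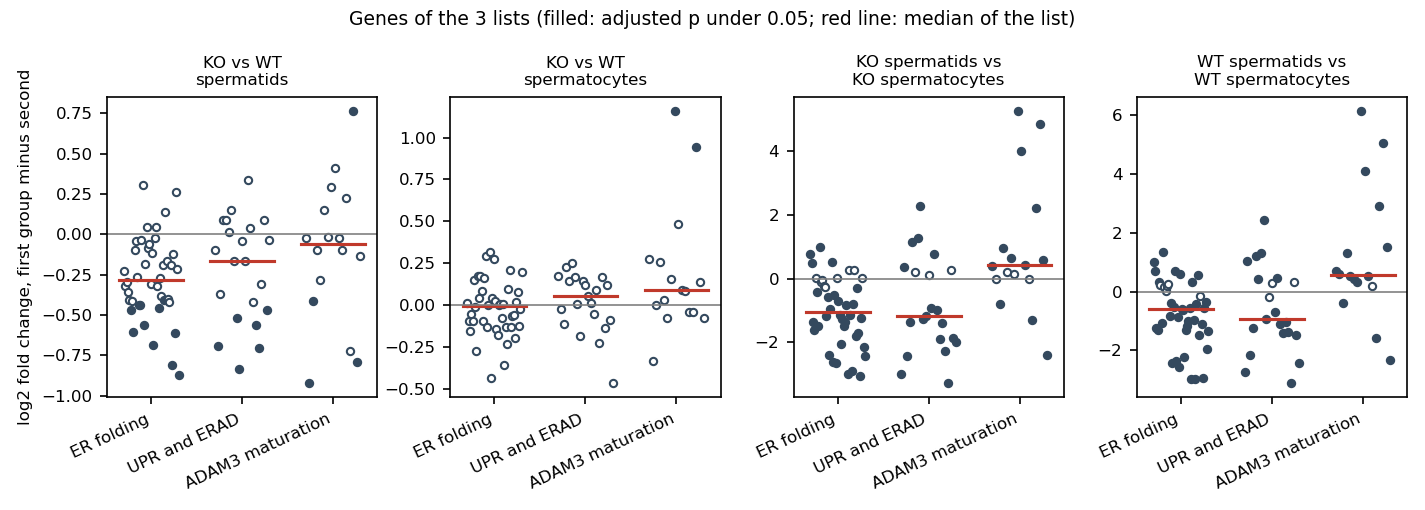
Log2 fold change of each gene (points, by its representative probe set) of the lists of ER folding, of the unfolded protein response and ER-associated degradation (UPR and ERAD) and of ADAM3 maturation, in KO against WT spermatids, KO against WT spermatocytes, and spermatids against spermatocytes in KO and in WT cells, with filled points at adjusted p under 0.05 and red lines at the list medians. The folding list has its median at -0.28 in the first panel and near 0 in the second, and the vertical scales differ between panels.

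The genes with the most similar profile over the 8 arrays, by root mean square distance of centred log2 values among 10633 genes, were Ddx5 (0.037), Chchd6 (0.041) and Lztfl1 (0.043) for Clgn. They were Acot9 (0.10), Abcg2 (0.11) and Tmem144 (0.13) for Calr3, 4930564C03Rik (0.15), Dscc1 (0.16) and Sgms2 (0.18) for Pdilt, Grip1 (0.28), Sgf29 (0.29) and Rffl (0.30) for Ace, and Tm2d3 (0.074), Hnrnpa2b1 (0.075) and Itpa (0.078) for Tex101. Among the members themselves the closest pairs were Pdia3 with Hspa5 (0.20) and Calr with Hspa5 (0.20), and of the testis chaperones Calr3 with Pdilt (0.47). These distances are descriptions over arrays that share 4 groups.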

How the data were processed

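The authors hybridised RNA of 8 cell fractions to Affymetrix mouse genome expression arrays and deposited log2 values per probe set after RMA background correction, normalization and summarization; the probe layout and array scans were not used here. Values were taken as deposited. The 64 control probe sets were left out. Of the other 45037, 34945 were annotated to 1 gene, 932 to several and 9160 to none. A mean per group was fitted with limma 3.58.1 in R 4.3.3 to all 8 arrays, with 4 residual and 5.85 prior degrees of freedom, two-sided contrasts and Benjamini-Hochberg adjustment over all 45037. Precision is limited by the array number: an exact permutation test of 2 arrays against 2 gives no p under 0.333. The script was tested on simulated data.

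The text names the 10 members, of each list up to 3 genes per comparison and direction with the largest called change, genes of other lists only as quality markers, and the 3 closest profiles for 5 members among genes with a signal of 100 or more on at least 2 arrays; Adam3 was added after its values were seen. Members and lists were chosen with earlier results of these data known. Suffixes of probe set names mark probes that match several transcripts of 1 gene (_a), of different genes (_s) or similar sequences (_x). Shares over bright probe sets were added after the calls were seen. Promoter windows came from RefSeq, GRCm38.p6; protein sequences were not used here. Alternatives were 3 other scalings, a filter on dim probe sets, the replicate number as a block, leaving out each array, fitting 4 arrays alone and the mean over probe sets.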

Additional observations from a re-analysis of the deposited data

Results flagged for a closer look

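The KO effect differed between spermatids and spermatocytes, by the interaction term of the limma fit, for 2 member probe sets and 2 genes of the wider lists. Of all probe sets 3.14% had a more negative effect in spermatids (6.78% of bright ones). The share was 2.38% of the folding list and 4.76% of the list of the unfolded protein response and degradation, near the general share. Of the 21 bright member probe sets it was 9.52%, somewhat above that of bright probe sets but resting on 2 calls. Clgn 1457829_at had a difference of -0.76 on the log2 scale (adjusted p = 0.0379), with -0.94 in spermatids and -0.18 in spermatocytes. Hspa5 1427464_s_at had -0.85 (adjusted p = 0.0243), with -0.90 in spermatids and -0.05 in spermatocytes. The difference was -1.07 for Uggt2 (adjusted p = 0.0140) and -0.98 for Edem3 (adjusted p = 0.0410).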

How the results depend on the processing

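Counts of called member probe sets depended on scaling and on single arrays. In KO against WT spermatids the count of 8 was 6 under each of the 3 scalings, 10 when only probe sets with a signal of 100 or more on at least 4 arrays were tested (9 of them lower, where the share of all tested probe sets called lower was 26.1%, against 9.63% without the filter), and 4 to 8 with 1 array left out. In spermatocytes the count of 0 became 1 with the replicate block and ran from 0 to 1 with 1 array left out. Across stages it was 16 to 21 in KO cells and 15 to 18 in WT cells under every alternative run. For the difference between cell types, the count of 2 was 0 after cyclic loess, 0 with expressed medians set equal, 1 after quantile normalization, 4 with the filter on dim probe sets, 1 with the replicate block and 0 to 3 with 1 array left out. The block also gave 5 in spermatids. The labels do not say whether arrays of equal replicate number were processed together. Their deviations correlated at -0.23 to 0.22 over the 6 pairs of groups, with 2 above 0.1. With 2 arrays a group, these values cannot tell whether some groups were paired. The cause of the changes in the counts was not tested.

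Directions turned mostly for values near 0. After cyclic loess, Pdilt had 0.11 and Pdia4 0.035 in KO against WT spermatids, Clgn had 0.29 across KO stages, and the difference between cell types was 0.014 for Pdilt, 0.11 for Calr and 0.054 for Pdia4 (0.055 after quantile normalization). With expressed medians set equal, the spermatid values were 0.059 for Pdilt and 0.086 for Pdia4, Pdia3 had -0.0071 in spermatocytes, Hspa5 had 0.043 across WT stages, Clgn had 0.42 across KO stages, and the difference between cell types was 0.093 for Calr and 0.14 for Pdia4. With the mean over probe sets, Pdia4 had 0.087 in spermatids and 0.14 for the difference, Pdia3 had -0.048 in spermatocytes and -0.11 across WT stages, Clgn had -0.46 and Hspa5 0.037 across WT stages, and Calr3 had -0.20 for the difference. With 1 array left out, KO against WT spermatids gave -0.32 to 0.12 for Pdia4 and -0.052 to 0.68 for Ace. Spermatocytes gave -0.22 to 0.43 for Pdilt, -0.11 to 0.16 for Pdia3, -0.10 to 0.064 for Pdia4 and -0.39 to 0.065 for Tex101. The difference between cell types gave -0.56 to 0.090 for Pdilt and -0.30 to 0.14 for Pdia4, and -0.74 to 0.13 for Ace. Only the 3 Clgn stage values among these passed the test. With 2 arrays a group, probe sets near background, such as Calr3, Pdilt, Adam6a and Adam6b in spermatocytes, bound what fold changes can be told.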
